A study of Mus musculus with 52 samples.

Results

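The insulin-like growth factor binding protein (Igfbp) genes Igfbp1 to Igfbp7 encode secreted proteins that bind insulin-like growth factors (IGFs) or carry the same N-terminal domain. They were taken by symbol from the gene tables, 7 of 23043 genes kept, with the longest transcript for each and the peaks over it and within 20 kb. The family was chosen with results of these data known, because Igfbp6 carried less H3K4me2 in FC/FC cells. That difference is therefore given as a description, with no test. Methylation of histone H3 at Lys4, with 1 (H3K4me1), 2 (H3K4me2), or 3 (H3K4me3) methyl groups, had been mapped by ChIP-seq in mouse embryonic fibroblasts (MEFs) immortalized by the 3T3 method, with loxP sites in both alleles of MLL2 (Kmt2d), an H3K4 methyltransferase. FC/FC cells had been exposed to tamoxifen for 24 h, which excises an internal block of MLL2 exons and shifts the reading frame to a stop codon, and were then grown to about a week. F/F cells were the untreated parental cells (0 h). Each mark had 3 libraries of FC/FC and 3 of F/F cells, 18 in all of the 52 samples of the study, and tamoxifen treatment and excision cannot be told apart in any comparison. The study describes them as independent experiments. FC/FC and F/F libraries share replicate numbers, but whether equal numbers mark a pair is not stated, and the tests here were unpaired.

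IGFs act through the type 1 IGF receptor to promote growth and survival, and most IGF in the circulation is held by IGFBPs. A binding protein can keep IGF from its receptor or carry and release it, and proteases that cleave IGFBPs set the ligand free. The members differ in source and binding. IGFBP1 is made in liver and is repressed by insulin, IGFBP2 is abundant in fetal tissue, IGFBP3 carries most circulating IGF, IGFBP4 is cleaved by the protease PAPP-A, IGFBP5 binds matrix, IGFBP6 prefers IGF2 to IGF1, and IGFBP7 binds IGF weakly. H3K4me3 marks the promoters of active genes, H3K4me1 lies at enhancers and at the edges of promoters, and H3K4me2 is found at both.

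The reads over the transcripts numbered between 26714377 and 49990775 per library. In H3K4me3, 7 of 8 fibroblast markers had a peak over the transcription start site (TSS) in all 6 libraries, among them Col1a1, Vim, and Pdgfrb, and Thy1 had none. No haematopoietic (0 of 4) or myogenic (0 of 3) marker had a peak in any library, while Cdh1, Kdr, and Tubb3, from the epithelial, endothelial, and neural lists, had one in all 6 and Epcam had one in 3 FC/FC and 2 F/F libraries. The tables sum over the whole of Kmt2d, and its values do not check the excision (H3K4me3 of 2.79 ± 0.13 RPKM in FC/FC and 2.63 ± 0.19 RPKM in F/F cells, SD, n = 3 each). One H3K4me2 library of FC/FC cells, NGS-6282 (replicate 1), carries the catalogue number of the H3K4me1 antibody in its labels. Ranked over genes, it correlated with the H3K4me1 libraries at 0.822 to 0.857 (Spearman), and with the remaining H3K4me2 libraries at up to 0.992. H3K4me2 results that turn on it are given with and without it.

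The 7 genes lie on 4 chromosomes (GRCm38). Igfbp2 (chr1:72824480-72852471) and Igfbp5 (chr1:72858065-72874865) are tail-to-tail neighbours 5593 bp apart, and so are Igfbp1 (chr11:7197787-7202546) and Igfbp3 (chr11:7206091-7213923), 3544 bp apart, so that the 20 kb windows of each pair share regions. Igfbp4 (chr11:99041260-99052643), Igfbp6 (chr15:102144186-102149512), and Igfbp7 (chr5:77349240-77408045) stand alone, although the last bases of Igfbp7 overlap those of Polr2b. Igfbp4 is the only member that the authors' tables mark as active. All 7 were matched to a promoter in RefSeq (GRCm38.p6). The 250 bases before the start are shown for 3 members whose start sites differed most in these libraries: Igfbp4, with wide peaks of H3K4me2 and H3K4me3, Igfbp6, with H3K4me1 and H3K4me2 peaks but no H3K4me3 peak, and Igfbp1, with no peak. CpG dinucleotides are in capitals.
Igfbp4 (chr11:99040994-99041243, plus strand): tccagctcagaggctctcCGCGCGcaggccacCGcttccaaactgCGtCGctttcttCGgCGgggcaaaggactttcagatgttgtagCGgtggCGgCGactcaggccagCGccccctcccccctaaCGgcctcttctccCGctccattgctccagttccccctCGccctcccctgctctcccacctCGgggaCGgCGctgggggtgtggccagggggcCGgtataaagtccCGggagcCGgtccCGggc
Igfbp6 (chr15:102143936-102144185, plus strand): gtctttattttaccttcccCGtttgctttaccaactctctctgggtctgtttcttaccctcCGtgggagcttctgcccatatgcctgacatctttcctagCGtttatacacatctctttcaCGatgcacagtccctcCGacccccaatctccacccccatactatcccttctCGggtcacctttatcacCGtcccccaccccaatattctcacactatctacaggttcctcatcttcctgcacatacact
Igfbp1 (chr11:7197537-7197786, plus strand): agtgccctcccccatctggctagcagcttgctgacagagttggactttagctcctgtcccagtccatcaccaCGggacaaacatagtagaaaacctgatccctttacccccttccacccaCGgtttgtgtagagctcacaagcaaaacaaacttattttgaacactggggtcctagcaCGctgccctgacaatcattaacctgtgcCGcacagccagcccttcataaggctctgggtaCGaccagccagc

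These stretches hold 22 CpGs in Igfbp4, 7 in Igfbp6, and 5 in Igfbp1, against a median of 6 over the 32851 mouse promoters of the same length. Igfbp3 had 32, Igfbp7 26, Igfbp2 14, and Igfbp5 10. G and C made up 69.2% of the stretch in Igfbp4, 49.6% in Igfbp6, and 53.2% in Igfbp1. The 3 members with an H3K4me3 peak over the TSS in all 6 libraries (Igfbp3, Igfbp4, and Igfbp7) were the 3 with the most CpGs, which is given as a description of 7 genes.

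A few motifs, chosen with the promoters in view, were searched on both strands. TATAAA, the TATA box (12.4% of all promoters), began 28 bases before the RefSeq start of Igfbp4, which lies 16 bp upstream of the start in the authors' tables, and was found on the other strand 148 bases before that of Igfbp6. GGGCGG, the core of the Sp1 site (32.7% of all promoters), occurred 3 times in Igfbp2 and 4 times in Igfbp7. CAAAACA, part of the insulin response element known from the human IGFBP1 promoter (5.56% of all promoters), began 108 bases before the start of Igfbp1. TGANTCA, the AP-1 site (6.75% of all promoters), was in none of the 7. A match is a description of the letters and not a site in use.

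Igfbp4 and Igfbp3 carried the most H3K4me2 and H3K4me3 per length of the family and Igfbp6 the most H3K4me1, in both genotypes. RPKM are reads per kilobase of transcript, with 500 bp added at each end, scaled to the depth of the library over transcripts. Averaged over the 6 libraries, H3K4me3 was 8.79 RPKM in Igfbp4, 2.07 in Igfbp3, and between 0.181 and 0.456 in the other 5 members. The ranges of Igfbp4 and Igfbp3 did not overlap each other or those of the rest, while Igfbp7, Igfbp2, Igfbp6, and Igfbp5 followed in an order in which each range overlapped the next. In H3K4me2 the order was Igfbp4 (9.48 RPKM), Igfbp3 (5.23), Igfbp6 (1.70), Igfbp7 (1.27), Igfbp5 (1.24), Igfbp2 (0.536), and Igfbp1 (0.144), with overlapping ranges between Igfbp6 and Igfbp7 and between Igfbp7 and Igfbp5. The place of Igfbp6 came from its F/F libraries (mean 2.17 RPKM). In FC/FC cells Igfbp6, Igfbp7, and Igfbp5 each had a mean of 1.23 RPKM. In H3K4me1 Igfbp6 (3.90 RPKM) and Igfbp4 (3.55 RPKM) overlapped and lay above Igfbp3 (2.16 RPKM). Since a start-site peak counts for less per length in a long gene, the level of Igfbp7, with 58806 bp, is not that of its promoter alone.

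**Figure D1:**
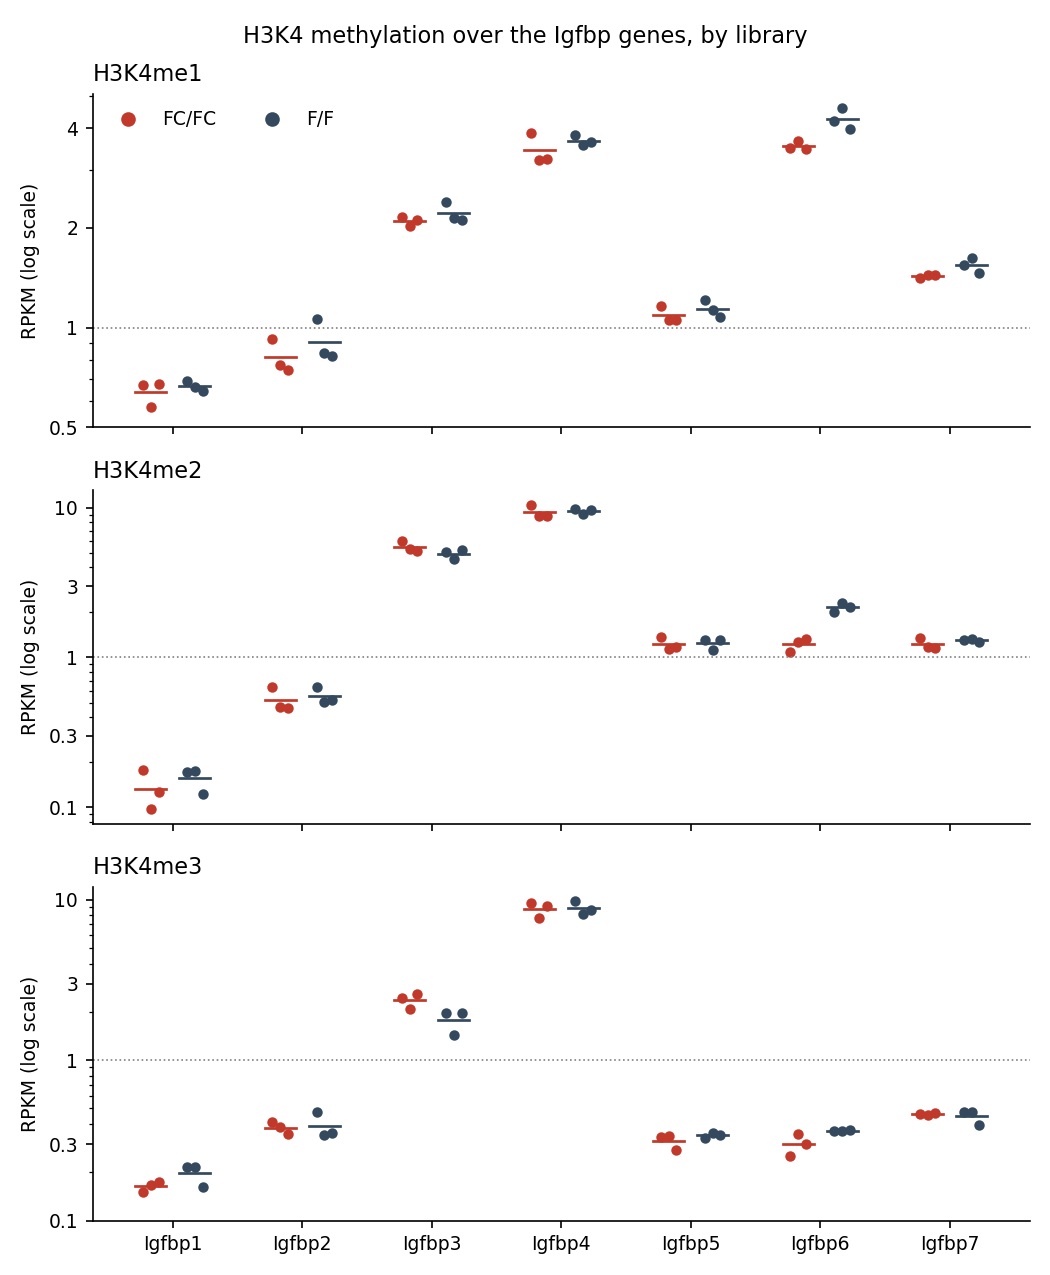
RPKM (log scale) of H3K4me1, H3K4me2, and H3K4me3 over the 7 Igfbp genes in each library, with FC/FC (red) left of F/F (blue), a line at each mean of 3 libraries, and a dotted line at 1 RPKM. Igfbp4 was highest in H3K4me2 and H3K4me3, and the FC/FC points of Igfbp6 lay below its F/F points in each of the marks.

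Against all 23043 genes, Igfbp6 stood high in H3K4me1 and near the middle in H3K4me3. Its H3K4me1 was above that of 98.5% of genes in FC/FC and 99.1% in F/F cells. Its H3K4me3 was above that of 44.1% of genes in FC/FC and 46.9% in F/F cells. Igfbp4 was above 93.4% of genes in H3K4me3 in FC/FC and 93.6% in F/F cells. Igfbp1, the liver gene, was the lowest member in each mark. In H3K4me2 it had 90 reads over the 3 FC/FC libraries and 117 over the 3 F/F libraries, so that its levels are near the limit of what this depth can show.

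The start sites fell into several patterns. Igfbp7 had H3K4me2 and H3K4me3 peaks over its TSS in all 6 libraries of each mark and H3K4me1 in none, as did 28.1% of all genes (6470 of 23043). Igfbp6 had H3K4me1 and H3K4me2 over its TSS in all 6 libraries and H3K4me3 in none, a pattern of 258 genes (1.12%). Igfbp5 also had both of these marks in all 6, with H3K4me3 in 1 FC/FC and 2 F/F libraries. Igfbp3 and Igfbp4 had H3K4me2 and H3K4me3 in all 6, and H3K4me1 peaks on both sides that reached the TSS itself in 2 FC/FC libraries and 1 F/F library for Igfbp3 and in 1 library of each genotype for Igfbp4. Igfbp2 had H3K4me2 in all 6 and H3K4me3 over the TSS in 2 FC/FC and 0 F/F libraries, but in every library an H3K4me3 peak lay within the region from -66 to 2197 bp of the start. Igfbp1 had no peak of any mark over its TSS, as did 36.2% of genes.

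**Figure D2:**
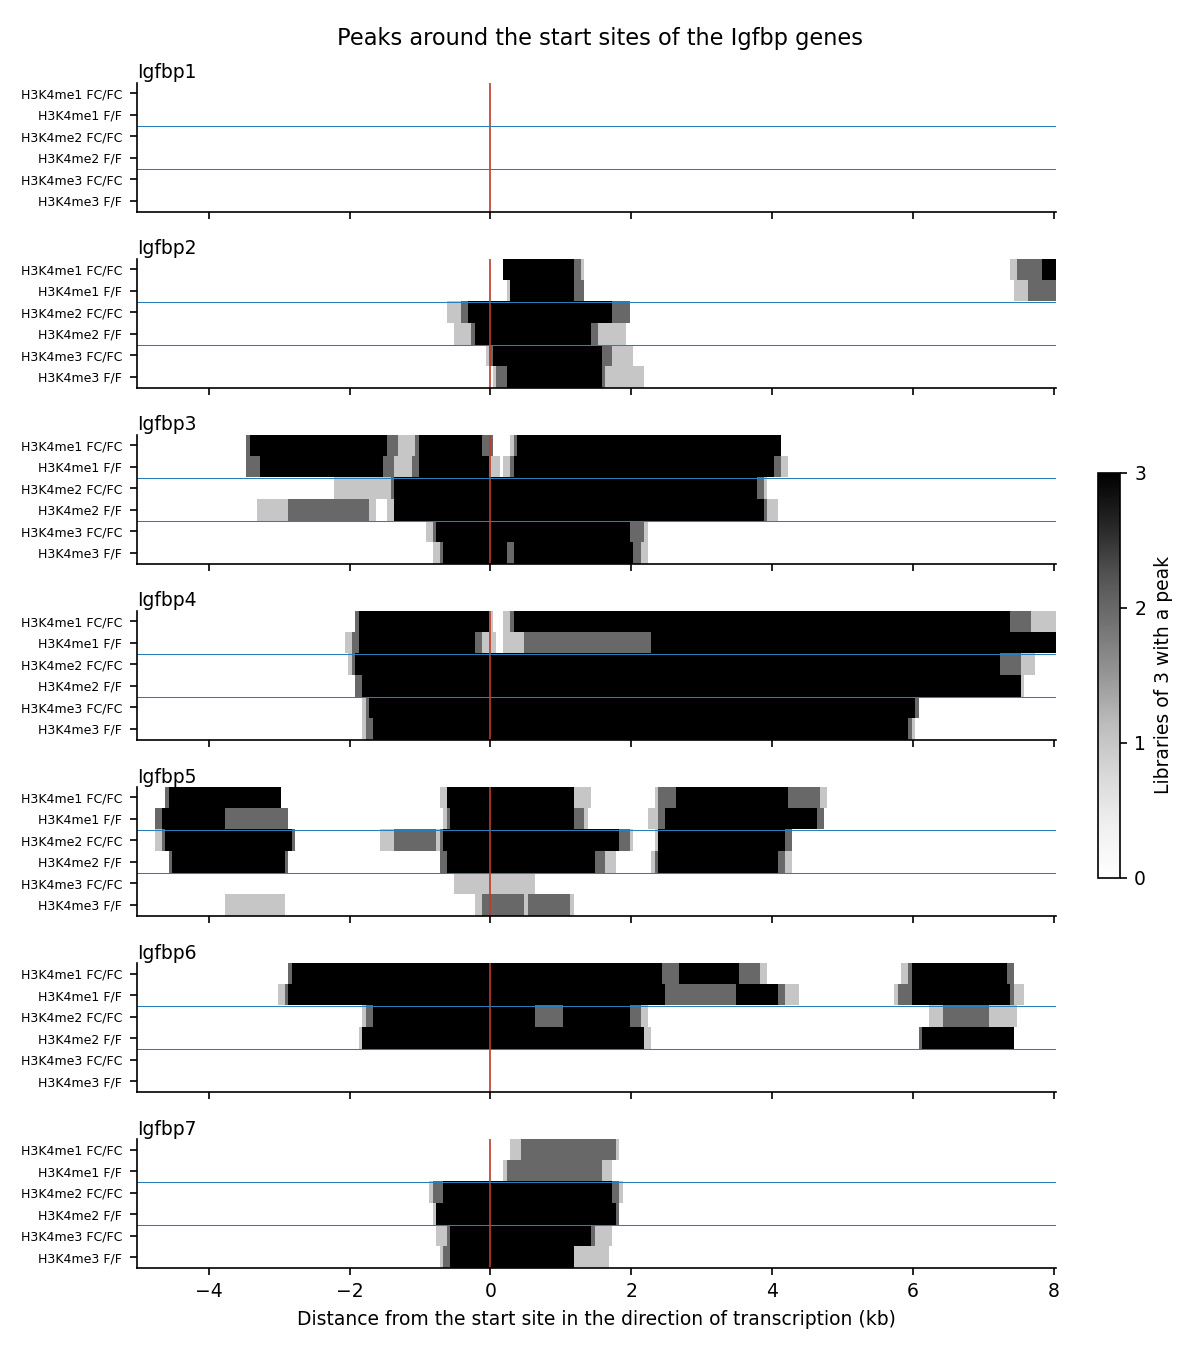
Number of libraries of 3 with a called peak (grey scale, 0 to 3) at each distance from the start site (kb, in the direction of transcription, red line at the start) for the 7 Igfbp genes, with FC/FC above F/F for each mark. H3K4me3 covered the starts of Igfbp3, Igfbp4, and Igfbp7 in all 6 libraries, and Igfbp6 had none there.

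In H3K4me2 and H3K4me3 the widest start-site regions were those of Igfbp4, merged over the 6 libraries of a mark, while in H3K4me1 the region over the TSS spanned 7399 bp at Igfbp6, 3615 bp at Igfbp3, and 2152 bp at Igfbp4. The H3K4me2 region of Igfbp4 spanned 9736 bp (-2032 to 7703 bp from the TSS) and its H3K4me3 region 7911 bp (-1849 to 6061 bp). Its H3K4me1 ran from 175 to 9104 bp inside the gene and from -2068 to 83 bp around its start. At Igfbp3 the H3K4me2 region spanned 7364 bp and the H3K4me3 region 3166 bp, and 2 more H3K4me2 regions lay upstream, between -14156 and -11916 bp and between -21365 and -19799 bp, each in all 6 libraries. Igfbp7 held 8 H3K4me1 regions in its body in all 6 libraries, and 2 of them, starting 48798 and 52389 bp from its TSS, also overlapped H3K4me2 and H3K4me3 peaks in all 6.

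Igfbp6 had less H3K4me2 in each FC/FC library than in any F/F library, which is the difference that chose the family (12.7% of all genes kept were lower without overlap). H3K4me2 was 1.09, 1.27, and 1.33 RPKM in the FC/FC libraries, against 2.02, 2.30, and 2.17 RPKM in the F/F libraries. The reads behind these values were 972 in FC/FC and 1813 in F/F cells. The log2 fold change on log2(RPKM + 0.1) was -0.77 (SE 0.08) with all 6 libraries and -0.69 without NGS-6282, which had the lowest of the 3 FC/FC values in Igfbp6 and the highest in each of the other 6 members.

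The other marks of Igfbp6 were measured in other libraries, but no label says whether these came from the same cultures. Their values are therefore not taken as independent of the difference that chose the family. H3K4me1 was 3.48, 3.67, and 3.46 RPKM in FC/FC cells, against 4.21, 4.59, and 3.97 RPKM in F/F cells, so that the groups did not overlap. The log2 fold change was -0.26 (95% interval -0.40 to -0.12, n = 3 each), with an adjusted p of 0.080 in limma, which did not pass 0.05. Under the alternatives tried the adjusted p ran between 0.059 and 0.225, all on the same side. H3K4me3 was 0.254, 0.347, and 0.300 RPKM in FC/FC cells, against 0.360, 0.362, and 0.365 RPKM in F/F cells, from 186 and 264 reads. This was under the filter of 1 RPKM and was not tested, although the groups did not overlap, as was so in 5.38% of genes. In 310 of all 23043 genes (1.35%), every FC/FC library lay below every F/F library in each of the marks. Igfbp6 is among them, with the mark that chose it counted.

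Peaks at Igfbp6 were kept in position. Its exon 1 covers the first 699 bp. The H3K4me2 region over it reached from -1853 to 2269 bp, into the first intron, and was called in all 6 libraries, with 3238, 3903, and 4064 bp in FC/FC cells, against 3957, 4123, and 4039 bp in F/F cells. In NGS-6282 it was split into 2 peaks. The MACS scores of that region were 861, 1520, and 994 in FC/FC cells, against 2480, 2347, and 3100 in F/F cells. Scores follow depth as well as enrichment and are given as values only. The H3K4me1 region was wider, from -3014 to 4384 bp, and reached exon 3, with 6516, 6400, and 6575 bp in FC/FC cells, against 5929, 7202, and 7295 bp in F/F cells.

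Of the 12 regions of the marks within 20 kb of Igfbp6, 9 were found in all 6 libraries, and none was present in all 3 libraries of one genotype and absent from the other. The H3K4me2 region at the start of the next gene downstream, Soat2, which makes cholesterol esters, was called in 2 FC/FC and 3 F/F libraries. Its 841 and 1057 bp in FC/FC cells compare with 1359, 1343, and 1282 bp in F/F cells. An H3K4me2 region between 22251 and 25007 bp downstream held 2364, 2609, and 2629 bp in FC/FC cells, against 2369, 2561, and 2714 bp in F/F cells, and these values overlapped. The promoter of Spryd3, upstream, was the only H3K4me3 region in the window, in all 6 libraries. Total H3K4me2 cover within 20 kb was 10056, 11232, and 10585 bp in FC/FC cells, against 11386, 12541, and 11673 bp in F/F cells. This comes from the libraries that chose the gene.

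**Figure D3:**
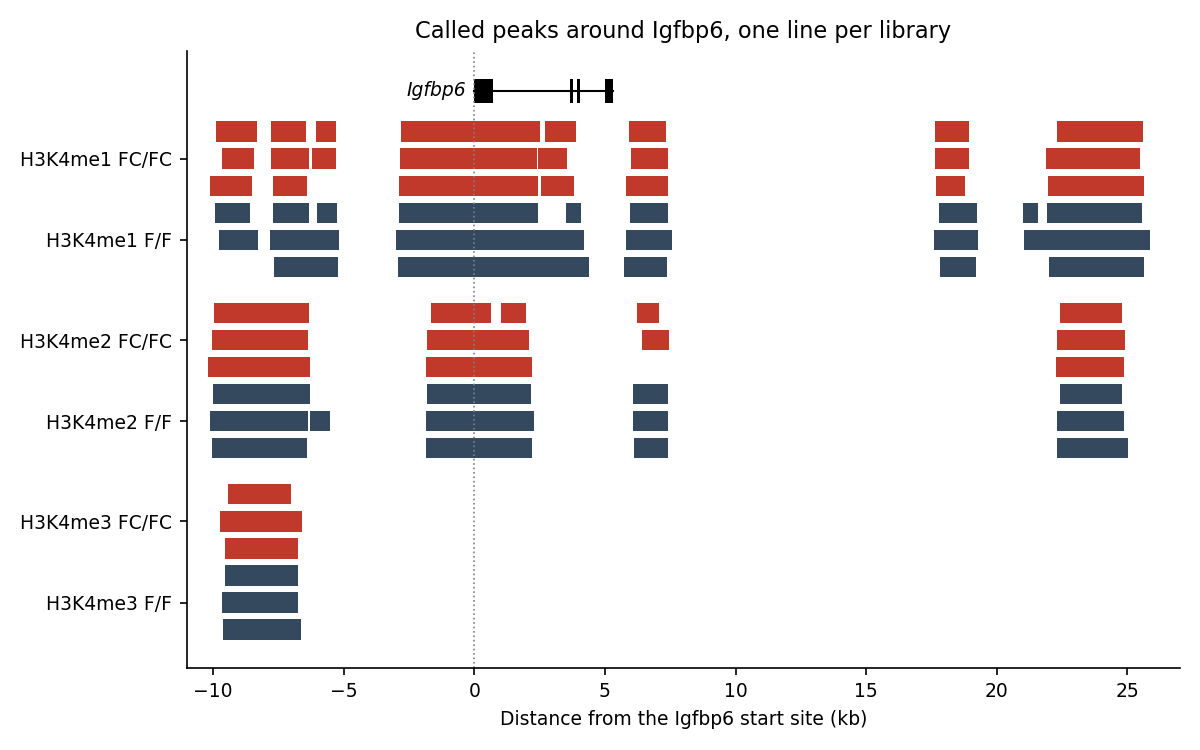
Called peaks around Igfbp6, one line per library with FC/FC (red) above F/F (blue) for each mark, against distance from the start site in kb, with exons as black boxes. The H3K4me2 peak over the start was called in all 6 libraries and split in NGS-6282 (top H3K4me2 line), and no H3K4me3 peak lay over the gene.

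The flanking genes were read as a comparison. Soat2, 1062 bp downstream, had H3K4me1 of 1.01 ± 0.05 RPKM in FC/FC and 1.15 ± 0.07 RPKM in F/F cells (SD, n = 3 each, log2 fold change -0.17, adjusted p = 0.151 in limma). Its H3K4me2 was 0.286, 0.240, and 0.269 RPKM in FC/FC cells, against 0.405, 0.398, and 0.471 RPKM in F/F cells (log2 fold change -0.52, 95% interval -0.71 to -0.34), and its H3K4me3 was 0.207 RPKM in FC/FC and 0.250 RPKM in F/F cells (log2 fold change -0.19). These were under the filter and not tested. Like Igfbp6, Soat2 was thus lower without overlap in each of the 3 marks, as were 1.35% of all genes kept. Its H3K4me3 came from 281 reads in FC/FC and 401 in F/F cells. With 500 bp added at each end the measured stretches of the 2 genes nearly meet, so they are not taken as independent. Spryd3, 7970 bp upstream, had H3K4me2 of 2.03 RPKM in FC/FC and 1.90 RPKM in F/F cells (log2 fold change 0.10, adjusted p = 0.222 in limma). It was higher without overlap, but narrowly, the lowest FC/FC value being 1.981 RPKM and the highest F/F value 1.979 RPKM. The share of all genes higher in this way in H3K4me2 is not given here. Neither the H3K4me1 of Soat2 nor the H3K4me2 of Spryd3 passed the test.

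None of the other members passed the test in any mark. H3K4me1 was tested in 5 of the 7 members, H3K4me2 in 4 besides Igfbp6, and H3K4me3 in 2, the rest being under the filter (more than 1 RPKM in 3 or more of a mark's 6 libraries). Of all genes tested, 0% were called in H3K4me1 in either direction (0 of 8566, with 2143 at an unadjusted p under 0.05). In H3K4me2, 1.54% were called lower (154 of 9986) and 0.581% higher (58). In H3K4me3, 0% were called (0 of 9073, with 337 at an unadjusted p under 0.05). On the recovered reads, limma-voom called 2.86% of genes lower and 2.8% higher in H3K4me1, 3.97% lower and 0.491% higher in H3K4me2, and 0 in H3K4me3, and again none of these members.

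In H3K4me1 all 7 members had lower means in FC/FC cells, with a median log2 fold change of -0.09. A negative value was found in 34.9% of all genes kept and in 51.0% of the genes tested, whose median was -0.0029. The 5 tested members stayed negative under quantile normalization, centring, and limma-voom. Igfbp7, with H3K4me1 of 1.41, 1.45, and 1.44 RPKM in FC/FC cells, against 1.55, 1.62, and 1.46 RPKM in F/F cells, was besides Igfbp6 the only member whose groups did not overlap (log2 fold change -0.10, 95% interval -0.23 to 0.02, adjusted p = 0.285 in limma). Over all genes kept, 9.48% were lower without overlap, and 18.7% of those tested, beside these 2 of the 7 members. Igfbp4 had H3K4me1 of 3.88, 3.21, and 3.23 RPKM in FC/FC cells, against 3.82, 3.55, and 3.62 RPKM in F/F cells, and these overlapped.

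In H3K4me2 the 4 tested members other than Igfbp6 differed by little, with log2 fold changes between -0.07 and 0.15, beside a median of 0.07 over all genes tested. Igfbp3 had 6.0, 5.33, and 5.16 RPKM in FC/FC cells, against 5.10, 4.54, and 5.22 RPKM in F/F cells (log2 fold change 0.15, 95% interval -0.03 to 0.33, adjusted p = 0.235 in limma). Igfbp4 had 10.4, 8.90, and 8.90 RPKM in FC/FC cells, against 9.81, 9.11, and 9.73 RPKM in F/F cells. The groups of Igfbp4 overlapped only through NGS-6282 (10.4 RPKM), as the other FC/FC libraries lay below every F/F library. With all libraries the 95% interval of its log2 fold change was -0.19 to 0.14, and without NGS-6282 it was not called. Igfbp5 was at 1.23 ± 0.12 RPKM in FC/FC and 1.25 ± 0.10 RPKM in F/F cells (SD, n = 3 each). Igfbp7 was at 1.23 ± 0.11 RPKM in FC/FC and 1.3 ± 0.03 RPKM in F/F cells (SD, n = 3 each, log2 fold change -0.07, adjusted p = 0.435 in limma). Without NGS-6282 it was called lower, with a log2 fold change of -0.14 and an adjusted p of 0.048 in limma, in a fit that called 8.56% of genes lower (846 of 9886) and 21.4% higher.

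In H3K4me3 Igfbp3, the main circulating carrier, had 2.44, 2.07, and 2.58 RPKM in FC/FC cells, against 1.96, 1.42, and 1.98 RPKM in F/F cells. The FC/FC libraries all lay above the F/F libraries, as they did in 3.4% of all genes kept. The log2 fold change was 0.39 (95% interval 0.09 to 0.70) with an adjusted p of 0.99 in limma (unadjusted 0.018), and it was not called under any alternative, the lowest adjusted p being 0.212. Igfbp4 had H3K4me3 of 9.49, 7.73, and 9.07 RPKM in FC/FC cells, against 9.76, 8.08, and 8.62 RPKM in F/F cells (log2 fold change -0.0099, 95% interval -0.23 to 0.21, adjusted p = 0.995 in limma).

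**Figure D4:**
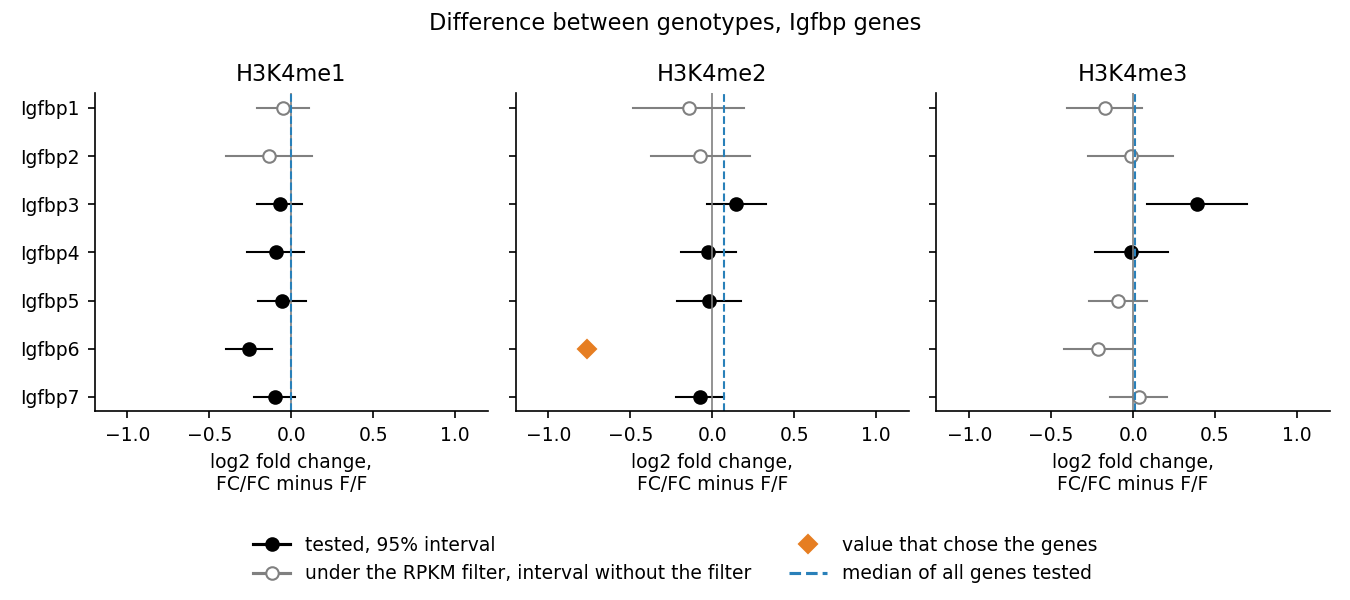
Log2 fold change of RPKM, FC/FC minus F/F, of the 7 Igfbp genes with 95% intervals (black, tested; grey open, under the filter and taken from the fit without it), the H3K4me2 value of Igfbp6 that chose the family (diamond, no interval), and the median of all genes tested (dashed). The H3K4me1 interval of Igfbp6 and the H3K4me3 interval of Igfbp3 lay apart from 0, but neither passed the adjusted test. The H3K4me3 interval of Igfbp6, under the filter and not tested, also lay apart from 0 (-0.42 to -0.0078).

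Peak cover within 20 kb was compared by an exact two-sided permutation test of 3 against 3 libraries, whose smallest p is 0.1. In H3K4me2 it was higher without overlap around 2 of the 6 members other than Igfbp6, where 4.8% of 19246 genes with cover were higher and 8.4% lower in this way. Around Igfbp5 it was 6954, 6325, and 7499 bp in FC/FC cells, against 5590, 6001, and 5949 bp in F/F cells (exact p = 0.1). Around Igfbp2 it was 4417, 4188, and 4047 bp in FC/FC cells, against 3899, 3770, and 3660 bp in F/F cells (exact p = 0.1). These windows share an H3K4me2 region in the body of Igfbp5 and are not independent, and with a window of 5 kb or 50 kb only Igfbp5 was left. In H3K4me1 (8.66% of genes lower and 5.77% higher without overlap) and H3K4me3 (4.48% lower and 1.33% higher) the cover of all 7 members overlapped between the genotypes. Around Igfbp4 the H3K4me3 cover was 11120, 11165, and 10695 bp in FC/FC cells, against 10998, 10853, and 11257 bp in F/F cells (exact p = 0.9).

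Around the other 6 members, 60 separate regions were counted and 48 were in all 6 libraries of their mark. None was in all 3 libraries of one genotype and in none of the other. Fewer FC/FC than F/F libraries had the region in 9 cases, and more had it in 2. In 3 H3K4me1 regions, upstream of Igfbp1, between Igfbp2 and Igfbp5, and at Tns4 downstream of Igfbp4, the count was 1 FC/FC and 3 F/F libraries. How often regions elsewhere differ in this way was not counted. The H3K4me2 lists held 58585, 58095, and 56112 peaks in FC/FC cells, against 66779, 62100, and 70437 in F/F cells. Those of H3K4me1 held 101157, 90629, and 89026 in FC/FC cells, against 120661, 81444, and 101056 in F/F cells. The counts are thus not read as a loss at these genes.

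Among the 30 genes of the IGF axis, 2 fell in H3K4me2 and both encode secreted HtrA proteases, which cleave IGFBPs and matrix proteins. Htra3 had 0.735, 0.671, and 0.636 RPKM in FC/FC cells, against 1.04, 1.00, and 1.18 RPKM in F/F cells (log2 fold change -0.59, SE 0.07, adjusted p = 0.023 in limma). Htra1 had 1.4, 1.2, and 1.18 RPKM in FC/FC cells, against 1.77, 1.64, and 1.71 RPKM in F/F cells (log2 fold change -0.41, SE 0.07, adjusted p = 0.041 in limma). In both genes the groups lay apart. Htra3 passed the filter only through its 3 F/F libraries, so it had to differ to be tested; the fit without the filter, over 23043 genes, gave it an adjusted p of 0.028 in limma. Of 18 list genes tested in H3K4me2, 2 were called lower and 0 higher, beside the 1.54% and 0.581% above, and their median log2 fold change was 0.03 beside 0.07 for all genes. The list was chosen with earlier results of these data known, and Htra3 is counted in it, so these shares are a description only. The calls rest on all libraries: leaving out any 1 library other than NGS-6282 left 0 of them, Htra3 dropping under the filter without any 1 F/F library, while those fits called between 0 and 18 genes in all. Without NGS-6282 the list had 6 calls, all lower, in a fit that called 8.56% of genes lower and 21.4% higher.

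The receptors Igf2r and Igf1r had the next smallest p in H3K4me2. Igf2r, which takes up IGF2 for degradation, had H3K4me2 of 1.53, 1.45, and 1.42 RPKM in FC/FC cells, against 1.71, 1.66, and 1.79 RPKM in F/F cells (log2 fold change -0.21, adjusted p = 0.071 in limma). Igf1r, the signalling receptor, had 1.58, 1.54, and 1.54 RPKM in FC/FC cells, against 1.76, 1.74, and 1.74 RPKM in F/F cells (log2 fold change -0.16, adjusted p = 0.077 in limma). Both missed the threshold here and passed it under centring, quantile normalization, and limma-voom. The receptors Insr (0.849 RPKM in FC/FC and 0.840 RPKM in F/F cells, log2 fold change 0.015) and Insrr (0.531 and 0.444 RPKM, log2 fold change 0.21) were under the filter and not lower. The adapter Irs3 differed more, at 0.916 RPKM in FC/FC and 1.60 RPKM in F/F cells (log2 fold change -0.75, adjusted p = 0.099 in limma). Its groups overlapped only through NGS-6282, at 1.21 RPKM. The other FC/FC libraries had 0.722 and 0.810 RPKM, against 1.76, 1.15, and 1.90 RPKM in the F/F libraries. Irs1, an adapter of the receptors, had the smallest p in the other direction in H3K4me2 (4.25 RPKM in FC/FC and 3.94 RPKM in F/F cells, log2 fold change 0.11, adjusted p = 0.165 in limma). In H3K4me1 (19 list genes tested, 5 at an unadjusted p under 0.05) and H3K4me3 (10 tested, 2 at an unadjusted p under 0.05) no list gene was called. Htra1 had the smallest p in H3K4me1, with 2.60 ± 0.13 RPKM in FC/FC and 3.05 ± 0.17 RPKM in F/F cells (SD, n = 3 each, log2 fold change -0.22, adjusted p = 0.091 in limma), and Pappa, the protease of IGFBP4, the smallest among higher values (1.26 RPKM in FC/FC and 1.17 RPKM in F/F cells, log2 fold change 0.10, adjusted p = 0.345 in limma). In H3K4me3 these were Stc1, a secreted inhibitor of PAPP-A (1.32 RPKM in FC/FC and 1.48 RPKM in F/F cells), and the adapter Irs2 (13.7 RPKM in FC/FC and 11.9 RPKM in F/F cells), both with an adjusted p of 0.99 in limma.

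**Figure D5:**
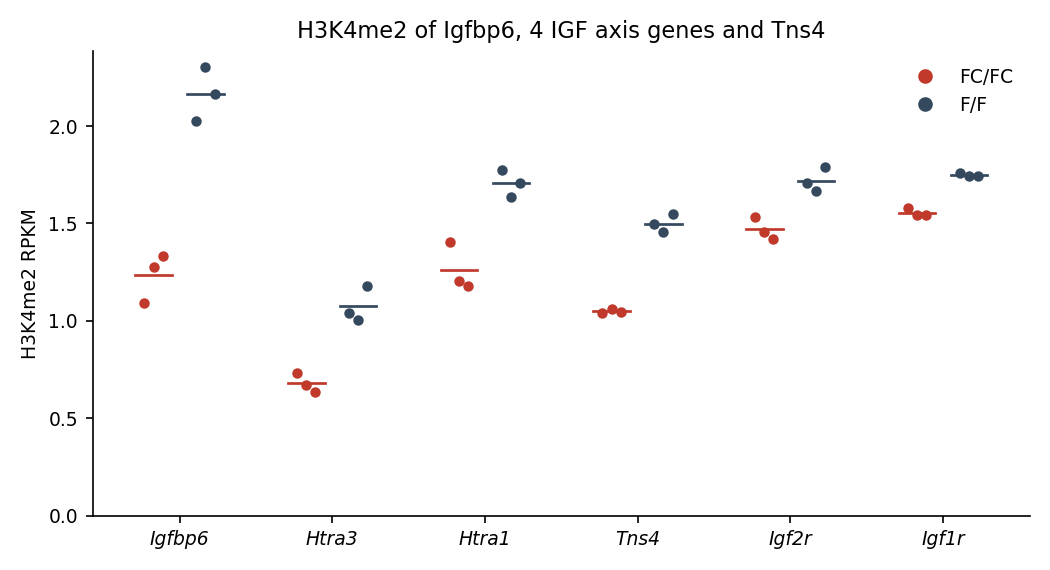
H3K4me2 RPKM per library of Igfbp6, of Htra3, Htra1, Igf2r, and Igf1r from the IGF axis, and of Tns4 next to Igfbp4, with FC/FC (red) left of F/F (blue) and a line at each mean. In each of these genes the FC/FC points lay below the F/F points; Htra3, Htra1, and Tns4 were called, and Igfbp6 was chosen on this difference.

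The neighbours of the other members included 1 called gene. Tns4, which encodes a focal adhesion protein and lies 13034 bp beyond the end of Igfbp4, fell in H3K4me2, with 1.04, 1.06, and 1.05 RPKM in FC/FC cells, against 1.5, 1.46, and 1.55 RPKM in F/F cells (log2 fold change -0.48, SE 0.04, adjusted p = 0.011 in limma). Without FC/FC replicate 2 or any 1 F/F library its adjusted p lay between 0.058 and 0.124. The other 9 neighbours passed in no mark in which they could be tested. Igfbp4 itself, between Tns4 and Top2a, had a log2 fold change of -0.03 in the same mark.

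The pattern of Igfbp6 over the 18 libraries was most like that of Mmp2, a matrix metalloproteinase (Pearson r = 0.997), Best3 (0.996), Gm20139 (0.995), 4933433H22Rik (0.995), and Pacsin2 (0.995), among 9985 genes tested for H3K4me2. These correlations are on log2(RPKM + 0.1) over libraries that share 3 marks with different levels, and 664 genes had r above 0.95. They include the H3K4me2 values that chose Igfbp6, so genes lower in that mark in FC/FC cells are favoured. The H3K4me2 values of the genes found are thus a description only. Mmp2 had H3K4me1 of 3.07 RPKM in FC/FC and 3.27 RPKM in F/F cells, H3K4me2 of 1.74 RPKM in FC/FC and 2.23 RPKM in F/F cells, and H3K4me3 of 0.808 RPKM in both. Within the family, Igfbp7 (r = 0.952) and Igfbp2 (0.892) were closest to Igfbp6 and Igfbp4 (-0.718) was farthest.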

How the data were processed

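H3K4me1, H3K4me2, and H3K4me3 ChIP-seq of MEFs was analysed in 18 libraries, 3 per mark and genotype; 34 other samples were not used here. According to the submitters' processing notes the authors used CASAVA 1.4, BWA 0.7.10 (genome build mm10), and MACS 1.4.2. Peaks were called against H3 libraries, which the marks share, and no label names a culture or batch. The RPKM that the authors deposited cover RefSeq transcripts plus 500 bp at either end and are not divided by H3. The deposited peak score is the negative log10 of the MACS p-value times 10, at least 50. The methods describe leaving out peaks in blacklisted regions, and whether the deposited lists precede that step is not given in the sources used here.

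Transcripts under 250 bp (1352) were dropped and the longest kept per symbol, leaving 23043 genes. Reads were recovered from the RPKM (100% whole within 0.01 read), and no 2 libraries were identical. Log2(RPKM + 0.1) was tested with limma 3.58.1 in R 4.3.3, per mark, on genes over 1 RPKM in 3 or more of 6 libraries, with Benjamini-Hochberg adjustment over all genes tested (threshold 0.05). Peak cover within 20 kb was compared by exact permutation tests. P-values measure the spread between these libraries. Promoters came from RefSeq (GRCm38.p6). Figures and other steps used Python 3.11.15 with pandas 2.3.3, scipy 1.17.1, and matplotlib 3.10.9.

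The members, the IGF axis list (30 genes of ligands, receptors, adapters, proteases, and related binding proteins), the cell type markers, and the tests were chosen with earlier results of these data known. Genes named were the 7 members, list genes that passed or had the smallest p in each direction, the nearest gene on each side, and the 5 most like Igfbp6. Igf1r, Igf2r, and the figure's genes were picked after their values were seen. Alternatives were pseudocounts of 0.01 and 1, no filter, the shortest transcript, quantile normalization, centring on medians, no trend, a single fit of 18 libraries, limma-voom, peak scores of at least 100, equal numbers of top peaks, windows of 5 and 50 kb, and leaving out each library.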

Additional observations from a re-analysis of the deposited data

How the results depend on the processing

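Igfbp6 kept a lower H3K4me1 and H3K4me2 in FC/FC cells under every alternative run. Its H3K4me2 log2 fold change was -0.50 with a pseudocount of 1 and -0.82 to -0.69 when each library was left out. That difference chose the family, so these refits describe it and lend it no support. No member was called in H3K4me1 or H3K4me3 under any alternative. In H3K4me2, where Igfbp6 was given no test, none was called apart from Igfbp7 without NGS-6282 (between 0 and 1 called when leaving out each library). When each library was left out, the log2 fold change of Igfbp4 ran between -0.10 and 0.012 in H3K4me2 and between -0.070 and 0.077 in H3K4me3, and that of Igfbp5 in H3K4me2 between -0.090 and 0.024, so that these changed sign. 

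IGF axis genes called in H3K4me2 numbered 4 under quantile normalization, centring, limma-voom, and the single fit, against 2, all lower, in fits that called 312, 406, 396, and 308 of all genes lower, against 154. The number was between 0 and 6 when leaving out each library. In H3K4me1, limma-voom called 1 (Htra1). Members with peak cover that did not overlap numbered 0 to 4 in H3K4me1, 2 to 4 in H3K4me2, and 0 to 2 in H3K4me3 when leaving out each library, and 1 in H3K4me1 with scores of at least 100 (Igfbp7, lower) or equal numbers of top peaks (Igfbp2, lower), and 1 in H3K4me2 with windows of 5 and 50 kb. Fewer libraries make a lack of overlap more likely, and otherwise the cause was not tested. No paired analysis was possible because no label pairs FC/FC with F/F libraries.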
